A study of Danio rerio with 6 samples.

Results

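In mpeg1-GFP+ cells of the adult zebrafish skin, 9 transcription factor genes known for their roles in myeloid cells were examined. They were the ETS factors spi1a, spi1b and spic, the interferon regulatory factor irf8, the C/EBP factors cebpa and cebpb, the large MAF factors mafba and mafbb, and runx1. Members were chosen by gene name, and 9 of 9 listed names were found once each among the 32520 genes of the table. The main contrast was sharp: in GFP+DsRed+ cells spi1b, mafbb and irf8 were the most raised members, and spic, readily measured in GFP+DsRed- cells, was nearly at the limit of detection.

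Transcription factors of these families act in combination to set myeloid identity. PU.1, encoded in zebrafish by spi1a and spi1b, binds purine-rich ETS sites and turns on receptors and effector genes of macrophages and granulocytes, often together with interferon regulatory factors such as Irf8. C/EBP factors open the same enhancers, and Runx1 acts upstream, at the emergence of blood stem cells from endothelium. Spi-C is an ETS factor related to PU.1, known in mouse for the macrophages of the splenic red pulp that recycle iron.

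RNA was sequenced from 6 libraries in 3 groups of 2, from untreated fish aged 3 months. All fish carried mpeg1-EGFP, which marks macrophages and the epithelial-like metaphocytes of the skin, with Kdrl:Cre and an act2b:loxP-STOP-loxP-DsRedexpress reporter, so that DsRed permanently marks cells descended from kdrl-expressing endothelium, blood included. GFP+DsRed- cells (replicates 1 and 2) and GFP+DsRed+ cells (replicates 1 and 3) came from wild-type controls, and GFP+DsRed- cells (replicates 2 and 3) from csf1rDM fish, which carry csf1ra j4e1/j4e1 and csf1rb sa1503/sa1503, mutations in both zebrafish genes for the macrophage colony-stimulating factor receptor. The series describes its replicates as biological but does not give the number of fish behind each library, and p-values measure only the spread between these libraries. The model has a known limit: the first macrophages of the embryo arise from tissue that does not express kdrl, so DsRed does not mark them. Cells of csf1rDM fish with DsRed were not among the libraries analysed here.

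Between 4024203 and 14816042 gene-assigned reads lay behind each library, as read from the values under the assumption that they were scaled and rounded up, and the read numbers, floors and counting limits below rest on it. Levels are given as CPM (read counts scaled to the library total), where 3 reads, taken as the floor of detection, correspond to 0.202 to 0.745 CPM. Levels of different genes were not corrected for gene length, so only the same gene is compared between groups. Replicates of a group correlated across genes at 0.957 to 0.978, and libraries of different groups at 0.809 to 0.939. The leukocyte marker ptprc stood at 571 and 785 CPM in GFP+DsRed+ libraries, against 20.2 and 13.2 CPM in the control and 15.0 and 10.7 CPM in the csf1rDM GFP+DsRed- libraries, while the epithelial cadherin cdh1 ran the other way, with 549 and 456 CPM against at least 1414 CPM in the other 4 libraries. Keratinocyte markers summed to between 13057 and 18480 CPM in the GFP+DsRed+ libraries too, so these were not macrophage RNA alone. The sums were higher in GFP+DsRed- libraries, at 24531 to 29932 CPM in control and 22596 to 26028 CPM in csf1rDM. This list shares cdh1 and epcam with the metaphocyte markers, and its member krt8 was higher in GFP+DsRed+ cells. Of the receptor genes, csf1ra was at 102 and 86.9 CPM in control GFP+DsRed- libraries, at 1081 and 1124 CPM in GFP+DsRed+ libraries and at 1.40 and 2.25 CPM in csf1rDM libraries. Csf1rb was at 34.1 and 47.7 CPM in GFP+DsRed+ libraries but only at 0.55 to 0.60 CPM in control GFP+DsRed- libraries (12 reads together). It was at 0 in both csf1rDM libraries, which allows levels of up to 0.591 and 0.745 CPM. For csf1rb the GFP+DsRed- cells of the 2 genotypes were thus not told apart. The labels do not say whether these alleles lower the RNA, so this is no check of the genotype.

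The first comparison asked how control GFP+DsRed+ cells differ from control GFP+DsRed- cells. Tests were made with limma on log2(CPM + 1) after TMM scaling, adjusted over 20382 genes, and "rose" and "fell" are used for an adjusted p below 0.05. Log2 fold changes on this scale understate the change of genes with few reads. Folds given as times are ratios of mean CPM before TMM scaling, so they need not match the log2 fold changes beside them. In GFP+DsRed+ cells 7 members rose, namely spi1a, spi1b, irf8, cebpa, cebpb, mafba and mafbb, spic fell, and runx1 did not pass the test. These 8 of 9 members stand against 25.4% of all genes called in this comparison (14.7% higher and 10.6% lower), and the median log2 fold change of the members was 1.81, against -0.02 over all genes. The members were chosen with earlier results of these data known, so these shares describe the list and are no test of it. With a log2 fold change beyond 2 as a further condition, 5 members were called, 4 of them higher (spi1b, irf8, mafba and mafbb) and 1 lower (spic), against 5.99% of genes (4.96% higher and 1.03% lower). In bulk libraries a smaller share of cells expressing a gene and less RNA per cell cannot be told apart.

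**Figure D1:**
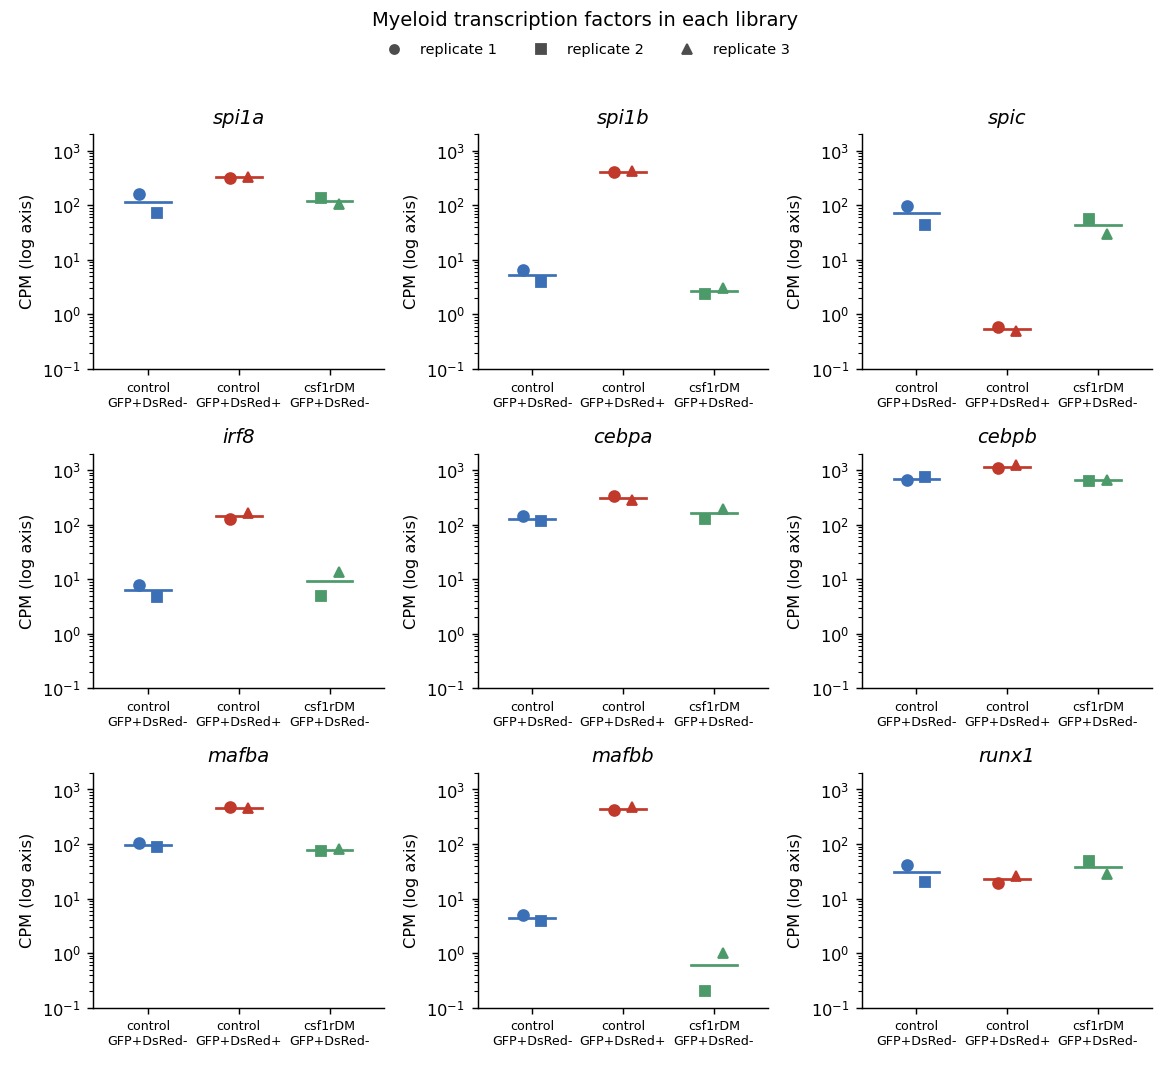
Level of each of the 9 transcription factor genes in each library, in CPM on a log axis, by group; marker shape gives the replicate number and the bar the mean of 2 libraries. The spic libraries of GFP+DsRed+ cells sit at 0.60 and 0.50 CPM, below all 4 others, while spi1b and mafbb lie at or above 401 CPM there and at or below 6.55 CPM elsewhere.

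Of the ETS factors, spi1b showed the widest gap upward. It stood at 6.55 and 3.95 CPM in control GFP+DsRed- libraries, at 401 and 427 CPM in GFP+DsRed+ libraries, and at 2.40 and 3.00 CPM in csf1rDM libraries. The GFP+DsRed+ libraries lay far above all others, with no overlap. The mean was 78.9 times as high in GFP+DsRed+ as in control GFP+DsRed- cells, a log2 fold change of 6.29 ± 0.23 (SE; limma adjusted p = 9.24e-05), the 25th highest of 20382 genes.

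Its duplicate spi1a behaved differently. It was at 160 and 72.5 CPM in control GFP+DsRed- libraries, at 318 and 333 CPM in GFP+DsRed+ libraries and at 137 and 104 CPM in csf1rDM libraries. All 6 libraries thus expressed spi1a well, both GFP+DsRed+ libraries were the highest, and control GFP+DsRed- and csf1rDM libraries overlapped. The mean rose 2.80 times in GFP+DsRed+ cells (log2 fold change 1.81 ± 0.33, limma adjusted p = 0.00809).

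For spic the order was reversed. It was at 97.5 and 44.3 CPM in control GFP+DsRed- libraries (1571 reads together), at 0.60 and 0.50 CPM in GFP+DsRed+ libraries (13 reads together), and at 56.2 and 29.6 CPM in csf1rDM libraries (404 reads together). Both GFP+DsRed+ libraries lay below every other library, and both were only a little above the floor of 3 reads, while the control GFP+DsRed- and csf1rDM libraries overlapped. The mean in control GFP+DsRed- cells was 129 times that in GFP+DsRed+ cells, with 95% limits of 79.4 to 255 that cover only the counting error of the 13 reads. On the log2(CPM + 1) scale spic fell by 5.26 ± 0.41 (limma adjusted p = 0.000249), the third lowest value of 20382 genes. Of 5 listed metaphocyte markers 4 fell in the same contrast, with the claudin cldnh in GFP+DsRed+ cells at 10.8% of its control GFP+DsRed- level, the granulin grn2 at 3.64%, cdh1 at 35.1% and epcam at 39.3%, against 0.775% for spic. The other, cd4-1, rose, from 2.15 and 0.50 to 63.1 and 87.4 CPM (log2 fold change 5.27 ± 0.37, limma adjusted p = 0.000168).

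Irf8, which in zebrafish favours macrophages over neutrophils, was at 7.74 and 4.70 CPM in control GFP+DsRed- libraries, at 126 and 162 CPM in GFP+DsRed+ libraries, and at 4.95 and 13.7 CPM in csf1rDM libraries. Both GFP+DsRed+ libraries were the highest, and the other groups overlapped. Irf8 rose by a log2 fold change of 4.56 ± 0.43, with a mean 23.2 times that of control GFP+DsRed- cells (limma adjusted p = 0.000499).

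The C/EBP genes moved least among the members that rose. Cebpa, needed in mammals for the granulocyte and macrophage lineages, was at 142 and 115 CPM in control GFP+DsRed- libraries, at 339 and 281 CPM in GFP+DsRed+ libraries and at 130 and 198 CPM in csf1rDM libraries. Cebpb, which in mammals acts in macrophage activation and is also expressed in epithelia, was at 651 and 742 CPM, at 1082 and 1216 CPM, and at 632 and 660 CPM in the same groups. For each gene the GFP+DsRed+ libraries were the highest and the other groups overlapped. Cebpa rose by a log2 fold change of 1.49 ± 0.23 (limma adjusted p = 0.0043) and cebpb by 0.95 ± 0.16 (adjusted p = 0.00665). The call of cebpb was lost without GFP+DsRed+ replicate 3 (log2 fold change 0.89, adjusted p = 0.0558).

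The large MAF genes mafba and mafbb differed from each other in the way spi1a and spi1b did. Mafbb was at 5.05 and 3.85 CPM in control GFP+DsRed- libraries, at 418 and 476 CPM in GFP+DsRed+ libraries, and at 0.20 and 1.00 CPM in csf1rDM libraries, where 1 and 4 reads were counted. Mafba was at 106 and 86.5 CPM, at 481 and 454 CPM, and at 75.9 and 81.3 CPM in the same groups. In CPM, before TMM scaling, the groups did not overlap for either gene, with GFP+DsRed+ libraries highest and csf1rDM libraries lowest. For mafba the difference between csf1rDM and control GFP+DsRed- cells did not pass the test after that scaling (log2 fold change -0.07, limma adjusted p = 0.797). Mafba kept a level of 75.9 to 106 CPM outside the GFP+DsRed+ cells, whereas mafbb was almost absent there. In GFP+DsRed+ against control GFP+DsRed- cells, mafbb was 100.5 times as high (log2 fold change 6.56 ± 0.29, limma adjusted p = 9.24e-05, the 12th highest of 20382 genes) and mafba 4.86 times (2.5 ± 0.15, adjusted p = 0.000108).

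Runx1 was at 40.9 and 20.2 CPM in control GFP+DsRed- libraries, at 19.1 and 26.2 CPM in GFP+DsRed+ libraries and at 48.9 and 27.8 CPM in csf1rDM libraries. Control GFP+DsRed- and GFP+DsRed+ libraries overlapped, and the log2 fold change between them was -0.13 with a 95% interval of -1.02 to 0.75 (limma adjusted p = 0.833). Changes within those limits were not excluded here. Without control GFP+DsRed- replicate 1 the value was 0.30 (adjusted p = 0.674), so runx1 was given no direction.

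**Figure D2:**
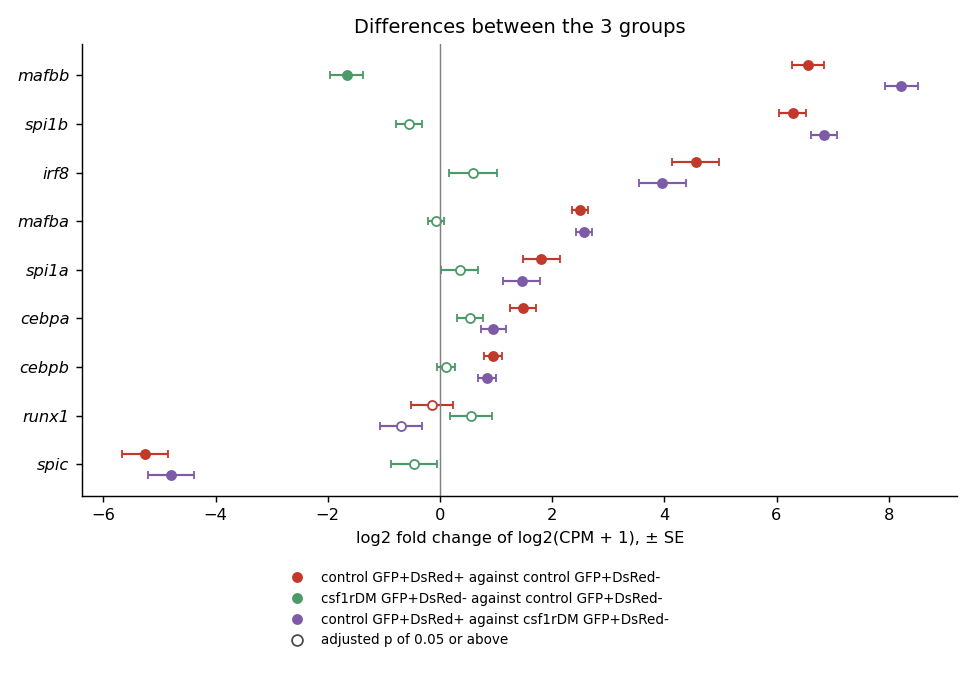
Log2 fold change of each member on the log2(CPM + 1) scale with its SE, in the 3 comparisons; filled symbols mark an adjusted p below 0.05 and open symbols the rest. In both comparisons with GFP+DsRed+ cells spi1b and mafbb lie beyond 6 and spic below -4.7, whereas between csf1rDM and control GFP+DsRed- cells mafbb, at -1.66, is the only filled symbol.

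Because a ratio of 2 genes within a library does not depend on the library's scaling, the duplicates were also compared that way, as a description with no test. The log2 ratio of spi1b to spi1a was -4.61 and -4.20 in control GFP+DsRed- libraries, 0.33 and 0.36 in GFP+DsRed+ libraries and -5.83 and -5.11 in csf1rDM libraries. Spi1b thus supplied 2.48% and 3.27% of the reads of the 3 genes spi1a, spi1b and spic in control GFP+DsRed- libraries and 55.7% and 56.2% in GFP+DsRed+ libraries. Spic supplied 36.9% and 36.7% of those reads in control GFP+DsRed- libraries, 28.8% and 21.7% in csf1rDM libraries, and 0.0833% and 0.0658% in GFP+DsRed+ libraries. These read shares are not corrected for gene length and serve only to compare libraries.

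The log2 ratio of mafbb to mafba moved in the same direction, from -4.39 and -4.49 in control GFP+DsRed- libraries to -0.20 and 0.07 in GFP+DsRed+ libraries. The mean shift was 4.37, against 4.75 for spi1b to spi1a. The ratio of cebpb to cebpa shifted by only -0.55, and its values of 2.20 and 2.68 in control GFP+DsRed- libraries lay above the 1.67 and 2.11 of GFP+DsRed+ libraries. The ratio of spic to spi1b changed most, from 3.90 and 3.49 in control GFP+DsRed- libraries to -9.39 and -9.74 in GFP+DsRed+ libraries, with 4.55 and 3.30 in csf1rDM libraries. The ratio of spic to spi1a, chosen after the values were seen, was -0.72 and -0.71 in control GFP+DsRed- replicates 1 and 2, although each of these genes was more than 2 times as high in replicate 1 as in replicate 2. Such a difference was not limited to spic and spi1a. In the same libraries mpeg1.1 was at 150 and 64.4 CPM and grn2 at 634 and 311 CPM, but cebpb at 651 and 742 CPM.

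**Figure D3:**
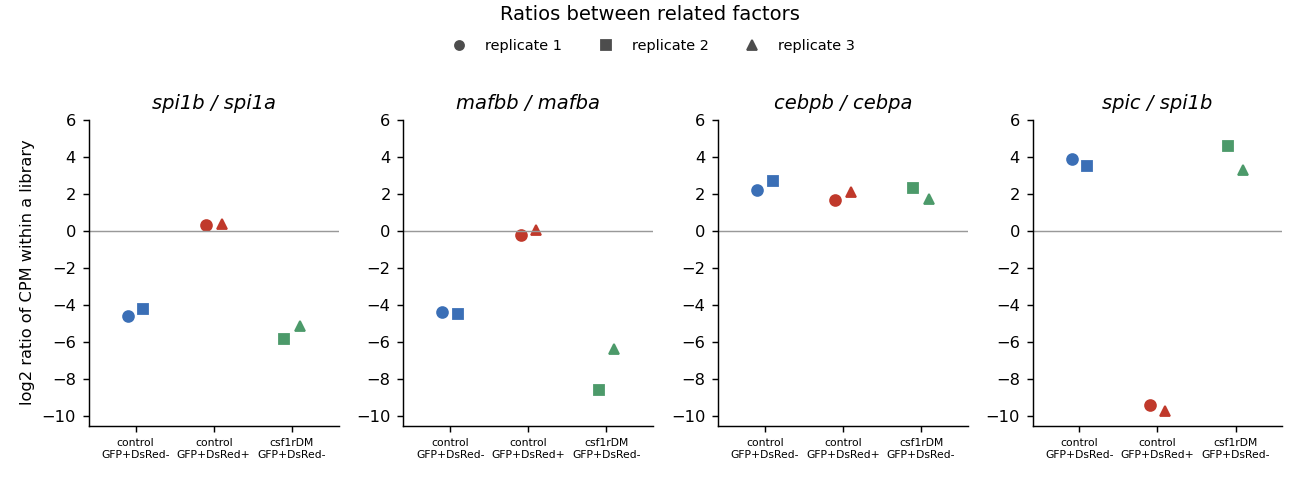
Log2 ratio of CPM between members within each library, for spi1b to spi1a, mafbb to mafba, cebpb to cebpa and spic to spi1b, by group, with 1 point per library. GFP+DsRed+ libraries lie near 0 for spi1b to spi1a and for mafbb to mafba, where the other libraries lie at -4.20 or lower, and near -9.6 for spic to spi1b, where the others lie above 3.

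The second comparison asked what loss of the Csf1 receptors changed in the GFP+DsRed- cells. Mafbb was the only member that passed the test, and it fell, from a mean of 4.45 ± 0.85 CPM (SD, n = 2) in controls to 0.60 ± 0.57 CPM in csf1rDM cells. None passed with a log2 fold change beyond 2 as well, a condition that 1.57% of genes met (0.942% lower). The call of 1 of 9 members compares with 7.01% of all genes called (3.97% higher and 3.03% lower), a share so near the background that it is not a result about the members. The log2 fold change was -1.66 ± 0.29 (limma adjusted p = 0.0249, range over alternatives 0.0195 to 0.127), and the means differed 7.42 times, with limits of 3.47 to 24.9 from the counting error of 5 reads in csf1rDM. The call rested on single libraries: the adjusted p was 0.127 without control GFP+DsRed- replicate 1, 0.125 without its replicate 2 and 0.0509 without GFP+DsRed+ replicate 3, which enters through the shared spread.

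The other 8 members did not pass. Spic had a log2 fold change of -0.47 with a 95% interval of -1.44 to 0.51 (adjusted p = 0.512), which leaves room for a change of that size in either direction, and its sign turned without control GFP+DsRed- replicate 1 (0.04). Spi1b had -0.56 (interval -1.11 to -0.00, unadjusted p = 0.0485, limma adjusted p = 0.185), and both csf1rDM libraries lay below both control libraries. Cebpb (0.11, interval -0.28 to 0.49) and mafba (-0.07, interval -0.43 to 0.28) had the narrowest intervals. Spi1a, irf8, cebpa and runx1 had values from 0.35 to 0.59 with adjusted p from 0.196 to 0.533.

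Other cell markers also differed between the genotypes. Xanthophore markers summed to 259 to 326 CPM in control and 2.5 to 3.2 CPM in csf1rDM GFP+DsRed- libraries, with slc2a15a and xdh at 0 in the latter, and fibroblast markers to 9242 to 10472 against 1136 to 2893 CPM. Of 9 macrophage markers csf1ra alone was called, a gene that is itself mutated in csf1rDM fish. Without it the sums overlapped, at 168 and 73.0 CPM in control and 136 and 118 CPM in csf1rDM GFP+DsRed- libraries. Most of each sum was mpeg1.1, at 64.4 to 150 CPM in control and 98.2 to 127 CPM in csf1rDM libraries, so the sums say little about the other genes. Mean c1qb went from 1.27 to 0.50 CPM and c1qc from 1.70 to 0.70 CPM, and c1qa, marco and mfap4 were also lower. Mrc1a (2.07 to 4.85 CPM) and mrc1b (4.07 to 6.12 CPM) were higher. Mfap4 was at 0 in the csf1rDM libraries. The part of such other cells in the mafbb result was not tested, nor in the differences of other genes given below, such as gata2a and vcam1b.

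The third comparison set GFP+DsRed+ cells against csf1rDM GFP+DsRed- cells, where genotype and DsRed status change together and cannot be told apart. It shares its GFP+DsRed+ libraries with the first comparison, and the members were chosen with earlier results known, so its counts are a description too. Again spi1a, spi1b, irf8, cebpa, cebpb, mafba and mafbb were higher in GFP+DsRed+ cells and spic was lower, 8 of 9 members against 32.3% of all genes called, and 5 of 9 beyond a log2 fold change of 2 against 8.13% (4 higher against 5.48% and 1 lower against 2.65%). Mafbb differed 745 times (limits of 348 to 2503 from counting error), spi1b 153 times and spic 78.0 times (limits 48.0 to 154). The log2 fold changes were 8.23 ± 0.29 for mafbb, 6.84 ± 0.23 for spi1b and -4.79 ± 0.41 for spic (limma adjusted p = 4.34e-05, 4.16e-05 and 0.000322). For irf8 and mafba they were 3.97 ± 0.43 and 2.57 ± 0.15.

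The calls of 3 members in this comparison depended on single libraries. Spi1a (1.46 ± 0.33, limma adjusted p = 0.015) lost its call without GFP+DsRed+ replicate 1 (0.0509) or 3 (0.0654) or csf1rDM replicate 3 (0.0801). Cebpa (0.95 ± 0.23, adjusted p = 0.0198) lost it without GFP+DsRed+ replicate 1 (0.103), and cebpb (0.84 ± 0.16, adjusted p = 0.00843) without GFP+DsRed+ replicate 3 (0.0622). Runx1 was again not called (-0.69, interval -1.57 to 0.20, adjusted p = 0.202).

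Levels in GFP+DsRed- cells, expressed as a percentage of the GFP+DsRed+ level, differed widely among the raised members. Spi1b was at 1.27% and mafbb at 0.995% in control GFP+DsRed- cells. Of the macrophage genes, the complement genes c1qa, c1qb and c1qc were at 0.458%, 0.509% and 0.716%. The mannose receptor genes mrc1b and mrc1a were at 0.641% and 1.95%, the scavenger receptor gene marco at 0.721% and mfap4 at 1.09%. Csf1ra was at 8.57% and mpeg1.1, the gene whose promoter drives GFP, at 7.74%. The leukocyte marker ptprc was at 2.47%. Irf8, at 4.31%, lay above ptprc and below mpeg1.1 and csf1ra. By contrast mafba was at 20.6%, spi1a at 35.7%, cebpa at 41.5% and cebpb at 60.6%. The leukocyte markers other than ptprc lay below, within and above that range, with wasb at 11.3%, laptm5 at 24.7%, coro1a at 31.9%, lcp1 at 33.1% and rac2 at 79.9%. In csf1rDM cells the same percentages were 0.652% for spi1b, 0.134% for mafbb, 6.46% for irf8, 16.8% for mafba, 36.9% for spi1a, 52.8% for cebpa and 56.2% for cebpb. The comparison genes other than ptprc and mpeg1.1 were taken from the marker lists after their values were seen.

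**Figure D4:**
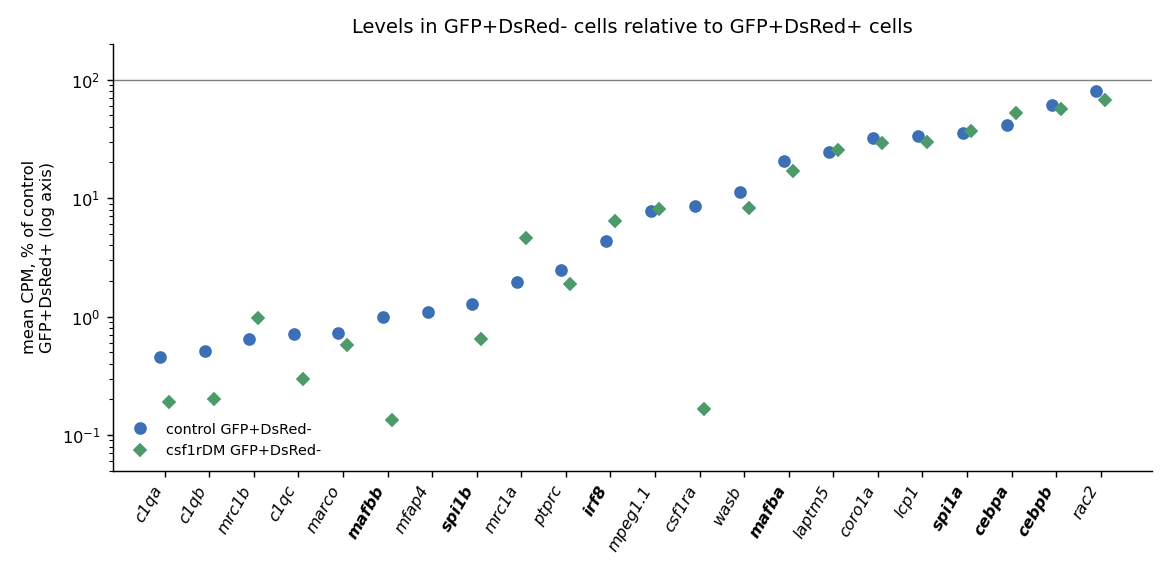
Mean CPM in control and csf1rDM GFP+DsRed- cells as a percentage of the mean in GFP+DsRed+ cells, on a log axis, for the 7 members that were higher in GFP+DsRed+ cells (bold) and for macrophage and leukocyte markers; mfap4 in csf1rDM, at 0, is not drawn. In control cells spi1b (1.27%) and mafbb (0.995%) lie among the macrophage genes, which run from 0.458% (c1qa) to 8.57% (csf1ra). Spi1a (35.7%), cebpa (41.5%) and cebpb (60.6%) lie above lcp1 (33.1%), while leukocyte markers run from 2.47% (ptprc) to 79.9% (rac2).

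Other blood cells may be carried in a GFP gate, and some of their markers were higher in GFP+DsRed+ libraries as well. B cell markers summed to 167 to 232 CPM there against 5.25 to 17.2 CPM in control GFP+DsRed- libraries, and T and NK cell markers to 117 to 160 against 15.9 to 19.5 CPM. Few genes carried these sums: of the genes tested, 1 of 3 B cell genes rose (blnk) and 3 of 6 T and NK cell genes (cd8a, cd8b and il7r). Neutrophil markers summed to 299 to 360 against 15.8 to 17.3 CPM, but csf3r alone gave 353 and 296 CPM of the sums in GFP+DsRed+ libraries. Without csf3r the order was the other way, with sums of 6.60 and 3.45 CPM in GFP+DsRed+ libraries against 11.6 and 13.0 CPM in the control libraries without DsRed. That order came from npsn, a protease of neutrophils, which fell from 10.3 and 12.0 to 3.90 and 1.5 CPM (log2 fold change -1.60, limma adjusted p = 0.0253). The rest of that sum, mpx, lyz and cpa5, was low and had higher means in GFP+DsRed+ cells. They stood at 1.67, 0.52 and 0.12 CPM there, against 0.75, 0.40 and 0 CPM in control GFP+DsRed- cells. Mature macrophages of mammals also express BLNK and CSF3R, but which cells gave the blnk and csf3r reads was not tested. The part of other blood cells in the rise of spi1b, irf8 and the other members was not tested either. Xanthophore markers summed to 17.9 to 21.7 CPM in GFP+DsRed+ against 259 to 326 CPM in control GFP+DsRed- libraries, and fibroblast markers to 4643 to 4681 against 9242 to 10472 CPM. Melanophore sums were lower too, endothelial sums overlapped and iridophore sums were higher (116 against 24.5 to 30.9 CPM). The part of such cells in the genes that fell was not tested.

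The genes whose profile over the 6 libraries lay nearest to each member were found by the root mean square (RMS) difference of centred log2(CPM + 1) values, a description over libraries in which the 2 genes share depth and scaling. Nearest to spi1b were csf3r (RMS 0.13), the receptor for granulocyte colony-stimulating factor, c1qa (0.16) and c1qc (0.20), then slc43a2b (0.31) and nrros (0.31). Mafbb had slc43a2b (0.44), c1qb (0.51), c1qc (0.52), cxcl19 (0.53) and cmklr1 (0.53) nearest to it. Spi1a had lcp2a (0.12), a signalling adaptor of blood cells, then pik3r5 (0.12), enosf1 (0.13), gpt2 (0.14) and gsr (0.14), and irf8 had itgb7 (0.23), rnaset2l (0.25), arhgap22 (0.25), qkib (0.26) and paox1 (0.27).

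The nearest gene lay farther from spic than from spi1b, mafbb, spi1a or irf8, clone and locus names left aside. Nearest to spic were mctp2b (RMS 0.53), efr3ba (0.59), grn2 (0.61), ftr66 (0.69) and nipal4 (0.70). Among the members themselves, cebpa and cebpb (0.34) had the nearest profiles, spi1b lay nearest to mafbb (0.62), and spic and mafbb were farthest apart (5.90).

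Relatives of the 9 members were followed through lists of 71 factor genes, of which 66 were in the table and 60 were tested. These lists too were chosen with earlier results of these data known. Between GFP+DsRed+ and control GFP+DsRed- cells 21 rose and 11 fell, with a median log2 fold change of 0.23, against -0.02 over all genes and 14.7% and 10.6% of genes called higher and lower. Over the alternatives 10 to 27 rose and 5 to 15 fell, and no call of a listed gene that was still tested changed sign. The counts were 13 and 8 without control GFP+DsRed- replicate 1, 11 and 5 without its replicate 2, 17 and 10 without GFP+DsRed+ replicate 1, and 10 and 5 without its replicate 3.

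Among 11 other ETS factors 3 rose and 1 fell. The largest rise was of fli1b, a factor of endothelium and blood, from 3.35 and 3.30 to 39.0 and 36.0 CPM (log2 fold change 3.34 ± 0.24, limma adjusted p = 0.000192), and elf2b followed (1.42, adjusted p = 0.00131). Ets2 had 0.63 (adjusted p = 0.028) and lost its call without any 1 of the 4 control libraries (0.0668 to 0.177). The epithelial factor elf3 fell by 1.05 (adjusted p = 0.02), a call lost without control GFP+DsRed- replicate 2 (0.12) or GFP+DsRed+ replicate 3 (0.128).

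Of 11 other interferon regulatory factors 6 rose, but 3 did without control GFP+DsRed- replicate 1, and 1, irf5, without its replicate 2 or without GFP+DsRed+ replicate 3. Irf5, linked in mammals to inflammatory macrophages, rose from 23.1 and 24.1 to 64.4 and 96.6 CPM (1.92 ± 0.25, limma adjusted p = 0.00197). Irf10 (1.62, adjusted p = 0.0102) and irf2a (1.36, adjusted p = 0.0107) rose with it, and lost their calls without control GFP+DsRed- replicate 2 (0.0683 and 0.0733) or GFP+DsRed+ replicate 3 (0.0778 and 0.0807).

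None of 3 other C/EBP factors tested was called, with 0 of 3 also in the other comparisons. Cebpd came nearest, at 272 and 350 CPM in control GFP+DsRed- and 171 and 122 CPM in GFP+DsRed+ libraries (-0.87, unadjusted p = 0.0159, limma adjusted p = 0.0587), and at an unadjusted p below 0.05 it was the 1 gene of the 3 in each comparison with GFP+DsRed+ cells, with 0 of 3 between the genotypes. Of 4 other MAF factors maff rose (0.96, adjusted p = 0.00596), a call lost without control GFP+DsRed- replicate 2 (0.0515) or GFP+DsRed+ replicate 3 (0.0557).

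The relatives of runx1 moved in both directions, 1 higher and 2 lower of 4. Runx2a, best known for bone in its mammalian form, fell from 40.2 and 32.0 to 10.6 and 7.64 CPM (-1.66 ± 0.23, limma adjusted p = 0.0026). Runx2b (-1.07, adjusted p = 0.0297) lost its call without either control GFP+DsRed- library (0.0716 and 0.156) or GFP+DsRed+ replicate 3 (0.174), and cbfb, the shared partner (0.63, adjusted p = 0.0324), without any 1 of the 4 control libraries (0.0766 to 0.196).

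Of 11 factors of stem and progenitor cells and of other blood lineages 7 fell in GFP+DsRed+ cells. The count was 5 without control GFP+DsRed- replicate 1, 3 without its replicate 2, 6 without GFP+DsRed+ replicate 1 and 3 without its replicate 3, with gata2a not tested when either control GFP+DsRed- library was left out because it then failed the filter on low values. Lmo2 rose (1.14, limma adjusted p = 0.0176, lost without any 1 of the 4 control libraries, 0.0798 to 0.119). Gfi1b, a repressor of the red cell and platelet lineages, was at 34.4 and 13.8 CPM in the control and 38.2 and 14.7 CPM in the csf1rDM GFP+DsRed- libraries, but at 1.40 and 0.45 CPM in GFP+DsRed+ libraries. It fell by 3.44 ± 0.56 (adjusted p = 0.00511). Gata3, known in lymphocytes and in epidermis, fell from 85.5 and 78.2 to 22.3 and 24.7 CPM (-1.54, adjusted p = 0.00197). Gata2a differed from both in that it was low in each of the other groups, with 0.70 CPM in each GFP+DsRed+ library and 0.60 and 0.25 CPM in the csf1rDM libraries, against 8.29 and 6.80 CPM in controls of the GFP+DsRed- gate (-2.16, adjusted p = 0.0016).

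In the list of mononuclear phagocyte factors 9 of 16 rose and 0 fell in the full fit, also 0 at an unadjusted p below 0.05. Over the alternatives 7 to 9 rose and 0 to 2 fell. With the replicate block id2a (limma adjusted p = 0.0925) and ahr2 (0.0533) lost their calls. Single libraries mattered too. Id2a lost its call without control GFP+DsRed- replicate 1 or 2 (log2 fold change 1.16 and 1.07) or GFP+DsRed+ replicate 3 (0.72). Bhlhe40 lost its call without control GFP+DsRed- replicate 1 (0.64) or GFP+DsRed+ replicate 1 or 3 (0.72 and 0.87). Tfec, a macrophage relative of Mitf that zebrafish iridophores also express, went from 2.05 and 0.80 to 80.3 and 89.4 CPM (5.36 ± 0.37, limma adjusted p = 0.000164). Tfeb, a regulator of lysosome genes, rose from 47.2 and 25.7 to 308 and 357 CPM (3.43 ± 0.29, adjusted p = 0.000327), and the nuclear receptor gene nr4a3 from 150 and 94.7 to 462 and 665 CPM (2.43 ± 0.25, adjusted p = 0.000729).

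**Figure D5:**
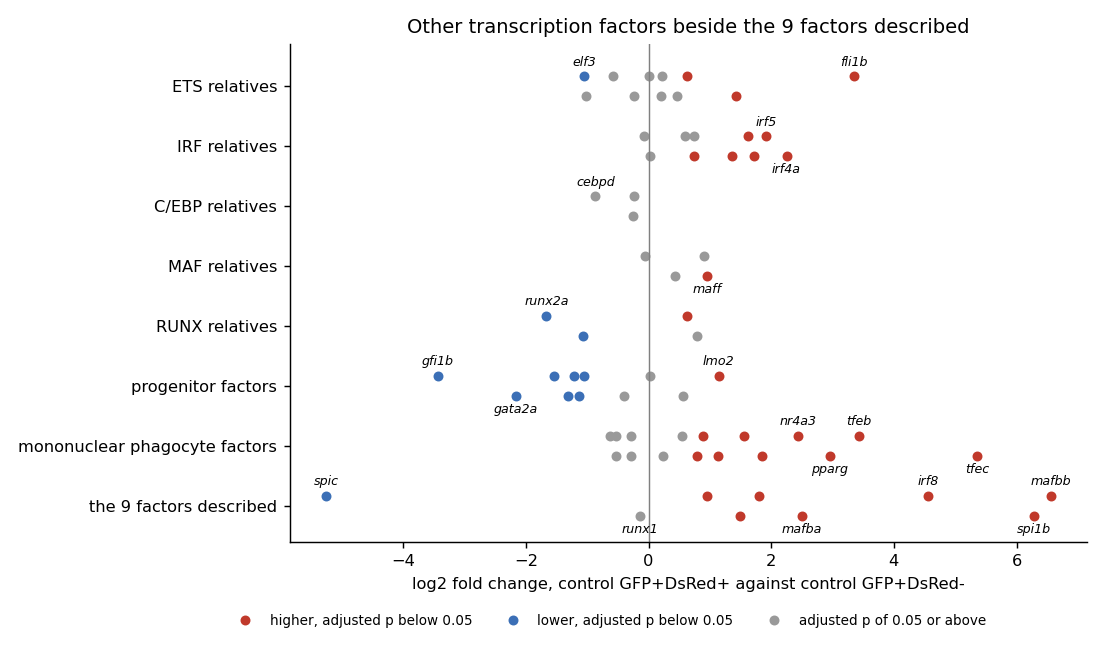
Log2 fold change between GFP+DsRed+ and control GFP+DsRed- cells for the tested factors related to the members, by list, with the 9 members in the lowest row, 1 point per gene and colour by call (higher, lower or not called). Higher calls in the full fit include 9 of 16 mononuclear phagocyte factors (tfec at 5.36, and 7 to 9 over the alternatives). They also include 6 of 11 interferon regulatory factors (1 to 8 over the alternatives), against 14.7% of all genes. Of 11 progenitor factors 7 are lower in the full fit, with gfi1b at -3.44, and 3 to 7 over the alternatives.

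Between csf1rDM and control GFP+DsRed- cells 1 of these 60 factors was higher and 6 were lower, against 3.97% and 3.03% of all genes, and 0 to 2 and 0 to 8 over the alternatives. Without control GFP+DsRed- replicate 1 or 2 the counts were 0 and 0. They were 0 and 4 without GFP+DsRed+ replicate 1, 0 and 3 without its replicate 3, 1 and 8 without csf1rDM replicate 2 and 0 and 2 without csf1rDM replicate 3. Gata2a fell by 2.44 ± 0.26 (limma adjusted p = 0.00618) and could not be tested without either control GFP+DsRed- library. Egr2b fell from 28.0 and 22.7 to 5.75 and 4.25 CPM (-1.94 ± 0.23, adjusted p = 0.00859, but 0.0672 and 0.0742 without control GFP+DsRed- replicate 1 or 2). Zeb2a, nr4a1, egr2a and runx3 were also lower, with adjusted p from 0.023 to 0.0471, and each lost its call without control GFP+DsRed- replicate 1 or 2 (0.085 to 0.214) and also without at least 1 of the GFP+DsRed+ or csf1rDM libraries (0.0508 to 0.0939). Runx3 was at 428 and 466 CPM in control and 191 and 97.9 CPM in csf1rDM GFP+DsRed- libraries (-1.49, adjusted p = 0.0397, but 0.14 and 0.2 without control GFP+DsRed- replicate 1 or 2, 0.0508 without GFP+DsRed+ replicate 3 and 0.0888 without csf1rDM replicate 3).

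Genes that PU.1 binds or drives in mammals, with mpeg1.1, were read beside spi1a and spi1b. In GFP+DsRed+ against control GFP+DsRed- cells 8 of 9 tested rose, 7 of them beyond a log2 fold change of 2, and the median was 3.76. Over all genes 14.7% were called higher, 4.96% beyond 2, and the median was -0.02. This list too was chosen with earlier results of these data known, so its count is a description. Over the alternatives 6 to 8 rose, and ncf1 lost its call with the replicate block (limma adjusted p = 0.0895). Ncf1 also lost it without control GFP+DsRed- replicate 2 (log2 fold change 1.1) or GFP+DsRed+ replicate 3 (1.25). Csf3r rose by 6.20 ± 0.29, the Fc receptor chain fcer1g by 5.58 ± 0.29 and csf1ra by 3.76 ± 0.19 (limma adjusted p = 9.24e-05 for each). Csf1rb rose by 4.84 (adjusted p = 9.38e-05) and mpeg1.1 by 4.01, from 150 and 64.4 to 1196 and 1579 CPM (adjusted p = 0.00041). Csf1rb passed the filter on low values only through the GFP+DsRed+ libraries, where it was high. Its call, counted among the 8 of 9, is therefore a description. It was not tested when either GFP+DsRed+ library was left out, so it is missing from the count there. The kinase gene btk did not pass, at 41.0 and 16.8 CPM in control GFP+DsRed- and 23.8 and 31.5 CPM in GFP+DsRed+ libraries (adjusted p = 0.652). In csf1rDM against control GFP+DsRed- cells, csf1ra, itself mutated in csf1rDM fish, was the only one of the 9 that passed the test (-4.90 ± 0.19, adjusted p = 0.000169). Csf1ra, csf3r and mpeg1.1 are also in the macrophage or neutrophil marker lists, so these counts overlap.

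The 3 tested genes listed beside spic as possible targets moved in both directions: in GFP+DsRed+ cells vcam1b fell, and slc40a1 and hmox1a rose. Slc40a1, the iron exporter ferroportin, rose from 14.1 and 9.69 CPM in control GFP+DsRed- to 193 and 116 CPM in GFP+DsRed+ libraries (3.78 ± 0.31, limma adjusted p = 0.00032). Hmox1a, which breaks down heme, rose from 33.2 and 22.2 to 185 and 175 CPM (2.90 ± 0.21, adjusted p = 0.000175). Vcam1b, an adhesion molecule, fell from 52.2 and 59.2 to 6.10 and 4.8 CPM (-2.93 ± 0.43, adjusted p = 0.00352).

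In csf1rDM GFP+DsRed- libraries, where spic was at 56.2 and 29.6 CPM, vcam1b was at 2.40 and 7.75 CPM. It was lower than in control GFP+DsRed- libraries by a log2 fold change of -3.18 ± 0.43 (limma adjusted p = 0.0128, but 0.0652 and 0.102 without control GFP+DsRed- replicate 1 or 2). Hmox1a was at 9.50 and 10.9 CPM there (-1.13 ± 0.21, adjusted p = 0.0287) and lost its call without any 1 of the 6 libraries (0.053 to 0.145). Slc40a1 stood at 9.90 and 14.4 CPM and overlapped the controls.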

How the data were processed

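RNA-seq libraries of sorted skin cells (Ovation SoLo with AnyDeplete) were analysed from 1 deposited table of 32520 genes. Per the submitters' processing notes and the study's methods, reads were aligned with STAR (2.5.4b) to GRCz11, counted with HTSeq (0.11.0) over Ensembl release 94 and tested by the authors with edgeR. What the authors deposited is a signal, namely gene counts multiplied by a factor per library to a total near 20000000 and rounded up. This scaling was read from the values and is not stated by the authors. The step size of low values gave the reads behind each library, with at least 99.188% of values whole under this model, where whole means exactly equal to a whole number of reads times the step, rounded up. Without the rounding up, 10.9% to 68.3% of values above 0 lay within 0.1 of a whole number of reads, so read numbers, floors and counting limits rest on that model. Intervals and floors (3 reads) from these reads cover counting error only.

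CPM and folds of CPM are relative to library totals. Genes that reached 1 CPM in 2 or more libraries (20382) were scaled by TMM (factors 0.936 to 1.14) and tested as log2(CPM + 1), pseudocount 1, with limma 3.58.1 (R 4.3.3; empirical Bayes with trend, two-sided), 1 coefficient per group over all 6 libraries, with Benjamini-Hochberg adjustment over genes in each of 3 comparisons. The procedure was tested on simulated data, in which genes varied independently and values were built with the rounding model assumed here. Those simulations thus could not test that model or shifts shared by many genes. An exact permutation test of 2 against 2 cannot pass the threshold and was not used. All 9 members passed the filter, 7 of them with at least 1 CPM in both libraries of every group (all but spic and mafbb). Genes named were the members, up to 3 called genes per related list, comparison and direction by adjusted p, the 5 nearest profiles of 5 members, and csf1ra, csf1rb, ptprc, mpeg1.1 and cdh1. Other genes named, such as btk, cebpd and the markers beside a result, were chosen after their values were seen. Members and lists were chosen with earlier results of these data known. Listed symbols not matched in the table were not analysed here. Figures were drawn with matplotlib 3.10.9. Of the related lists, 1 gene (counted in the totals over lists and not drawn) and 1 list are not reported here. Sequences were not used here.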

Additional observations from a re-analysis of the deposited data

How the results depend on the processing

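The signs and calls of spic, spi1b, irf8, mafba and mafbb in both comparisons with GFP+DsRed+ cells held under every alternative run. Of the log2 fold changes of the 9 members under the alternatives, 389 kept their sign and their side of the threshold, 16 lost their call and 9 that were not called changed sign. The cause was not tested. Sign changes were seen for runx1 between GFP+DsRed+ and control GFP+DsRed- cells (0.089 with reads thinned to the shallowest library, and -0.592 to 0.304 leaving out a library). Between csf1rDM and control GFP+DsRed- cells they were seen for cebpb (-0.107 without TMM) and, leaving out a library, for cebpb (-0.038 to 0.237), spic (-0.989 to 0.044), mafba (-0.181 to 0.024), spi1a (-0.178 to 0.868) and irf8 (-0.057 to 1.206). The sign turned without control GFP+DsRed- replicate 1 for the first 3 of these genes, its replicate 2 for spi1a and csf1rDM replicate 3 for irf8.

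Between csf1rDM and control GFP+DsRed- cells the 1 member called became 0 with a pseudocount of 5 (mafbb -0.68, limma adjusted p = 0.0541), with only the 2 groups compared (0.0558), with the replicate block (0.096) and with a log2 fold change beyond 2, and 0 to 1 when a library was left out. The 1428 genes called there became 697 without a filter, 806 with only the 2 groups, 78 with the block, 319 beyond 2, and 110 to 1618 leaving out a library. In GFP+DsRed+ against control GFP+DsRed- cells 8 members became 5 beyond 2 and 7 to 8 leaving out a library, and 5173 genes became 2334 (block), 1220 (beyond 2) and 1972 to 6143. Against csf1rDM cells 8 members became 5 with the block, 5 beyond 2 and 6 to 8, and 6593 genes became 3905, 1658 and 3157 to 6497.

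Same-numbered replicates did not deviate together (correlations -0.422, 0.0298 and 0.0198). With 2 libraries per group the deviations mirror each other, so these values cannot show whether same-numbered libraries came from the same fish. A pairing by number is thus not excluded. The main test did not use it, and under the replicate block cebpb lost its call in the first comparison (0.0694). In the third, spi1a (0.0743), cebpa (0.101) and cebpb (0.0523) lost theirs. Crossed pairs of the control libraries as a block, chosen after seeing the data, gave 9270 genes and 8 members. Without TMM the median of all genes shifted by -0.187 and -0.181 in the first and second comparison, and the share of higher among called genes went from 58.1% to 42.1% and from 56.7% to 30.7%. Count tests on recovered reads (planned) were not run because the deposited values are scaled and rounded. With 13 reads in GFP+DsRed+ cells for spic and 5 in csf1rDM cells for mafbb, depth limits the size of those changes.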
